A study of Rattus norvegicus with 6 samples.

Results

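The genes of the tumour necrosis factor (TNF) superfamily and of the TNF receptor superfamily were examined in cultured rat granulosa cells, which nurse the oocyte inside the ovarian follicle. Members were chosen by gene name: every symbol that starts with Tnfsf or Tnfrsf and a digit, together with Tnf, Fas, Faslg, Lta, Ltb, Ltbr, Cd40, Cd27, Eda, Edar, Ngfr and Relt. The rule found 39 of the 17525 genes of the table, 24 receptors and 15 ligands. Cd27, Tnfrsf13b and Tnfsf14, which RefSeq also lists for the rat, have no row here and were not analysed.

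All values come from the group titled ATR, with 3 libraries called ATR 1, ATR 2 and ATR 3. The group titled Control, also with 3 libraries, is not analysed here, so nothing here measures a response to exposure. The series' title concerns long-term atrazine, a triazine herbicide, but no label spells out ATR, and neither the dose and length of exposure nor whether rats or cultured cells were exposed is given in the sources used here. For all libraries the design text gives SD rats of 21 days that received 60 IU of PMSG (a gonadotropin that drives follicle growth) 48 h before their ovaries were cut up, digested and cultured in serum-containing medium. No label says whether the libraries came from separate animals, pools of animals or cultures, so the spread between them may be technical.

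TNF superfamily ligands are mostly trimeric proteins of the cell surface, and many are released by proteases. They bind receptors with cysteine-rich outer domains. Some receptors carry a death domain that recruits TRADD or FADD and can lead to caspase activation, others bind TRAF adaptors and feed NF-kB and JNK, and a few are secreted or lack a signalling tail and act as decoys. In the ovary TNF, Fas ligand and TRAIL are known for their links to follicle atresia, the death of granulosa cells in follicles that do not ovulate. Many other ligands and receptors of the family are best known from T cells, B cells and antigen-presenting cells.

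The libraries held 18677212 to 19170552 reads assigned to genes, and 0 reads in a library allows a level of up to 0.156 to 0.161 CPM, that is assigned reads per 1000000 (3 counts over the total, counting error only). Of the granulosa cell markers, Foxl2 stood at 48.0 to 63.6 TPM (transcripts per 1000000, which corrects for the length of a transcript and for the depth of the library) and Fshr at 4.77 to 7.38 TPM. The markers Amh, with 0 to 2 reads, and Cyp19a1, with 1 to 2.33 estimated reads, were near 0. Thus 6 of the 8 granulosa markers (75%) reached 1 TPM, a share near the 71.4% of all genes. The mesothelium gene Upk3b stood at 1316 to 1513 TPM, and Tagln, a smooth muscle gene that cultured cells also express, had the highest mean of the table. The data thus bear out the granulosa label for only part of its markers, and the count at 1 TPM adds nothing to this. In RNA from bulk cells, fewer cells of a type and less RNA per cell cannot be told apart.

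Promoter letters are shown for the 3 most abundant receptors that have an entry in the RefSeq promoter table, for the most abundant ligand, and for Tnf, the founding ligand, so that the DNA before a highly expressed and a nearly silent member can be compared. Each run is the 250 bases before the gene's start in RefSeq (build GRCr8), 5′ to 3′ on the gene's strand. Capitals mark the TATA box letters TATAAA and the GC box letters GGGCGG on either strand, so that a match on the other strand reads as its reverse complement.
Tnfrsf12a (GRCr8 chr10:13213649-13213898, minus strand): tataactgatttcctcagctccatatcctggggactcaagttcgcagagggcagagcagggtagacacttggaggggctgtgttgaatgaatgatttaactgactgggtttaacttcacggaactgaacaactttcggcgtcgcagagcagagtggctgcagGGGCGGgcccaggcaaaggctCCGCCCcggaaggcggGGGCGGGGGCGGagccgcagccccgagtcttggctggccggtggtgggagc
Tnfrsf1a (GRCr8 chr4:159836869-159837118, plus strand): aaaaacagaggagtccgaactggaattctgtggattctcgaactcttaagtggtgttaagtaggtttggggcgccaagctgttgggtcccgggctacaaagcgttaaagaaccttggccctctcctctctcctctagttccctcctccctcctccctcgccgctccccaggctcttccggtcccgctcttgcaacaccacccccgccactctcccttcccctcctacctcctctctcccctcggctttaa
Ltbr (GRCr8 chr4:159801517-159801766, minus strand): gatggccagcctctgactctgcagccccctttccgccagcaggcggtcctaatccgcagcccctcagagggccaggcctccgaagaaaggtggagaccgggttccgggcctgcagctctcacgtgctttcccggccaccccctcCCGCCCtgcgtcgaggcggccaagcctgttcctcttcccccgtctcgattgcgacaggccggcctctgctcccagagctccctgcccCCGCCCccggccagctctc
Tnfsf18 (GRCr8 chr13:76366603-76366852, plus strand): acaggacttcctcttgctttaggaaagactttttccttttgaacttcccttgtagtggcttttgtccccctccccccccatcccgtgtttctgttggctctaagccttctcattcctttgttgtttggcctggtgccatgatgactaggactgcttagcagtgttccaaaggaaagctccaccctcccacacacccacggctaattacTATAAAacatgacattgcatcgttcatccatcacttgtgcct
Tnf (GRCr8 chr20:3626435-3626684, plus strand): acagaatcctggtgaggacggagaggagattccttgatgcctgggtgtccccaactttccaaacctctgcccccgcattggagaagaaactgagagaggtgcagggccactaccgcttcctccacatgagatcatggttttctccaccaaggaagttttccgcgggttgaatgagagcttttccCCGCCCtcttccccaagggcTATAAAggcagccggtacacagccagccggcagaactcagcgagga

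The Tnfrsf12a stretch holds 4 GC boxes and no TATAAA, that of Ltbr holds GC boxes alone, and that of Tnfrsf1a neither motif. Tnfsf18 and Tnf each have a TATAAA, which starts 42 and 46 bases before the gene's start, and Tnf also has 1 GC box. Promoters were available for 29 of the 39 members, matched by gene ID. Those of Tnfrsf11b, Cd40, Tnfsf9, Ngfr, Tnfsf4, Tnfsf12, Tnfrsf11a, Tnfrsf18, Tnfrsf14 and Tnfrsf10b were not available. TATAAA was found in 8 of the 29 (27.6%), against 7.97% of the 13242 genes of the table with a promoter. GGGCGG was found in 14 of 29 (48.3%), against 52.8% of these genes. The letters TGANTCA (the AP-1 motif) were present in 3 of 29 (10.3%), against 4.89% of all, and the NF-kB consensus in 4 of 29 (13.8%), those of Fas, Ltb, Lta and Tnfrsf8, against 5.44% of all. All 4 motifs were searched on both strands, and a gene was counted once for a motif however many matches it had. Matches of the NF-kB consensus can share bases with GGGCGG, and the other motifs cannot share bases with each other. CG pairs had a median of 9 in the 13 members expressed at 1 TPM or more and of 5 in the 16 others. Over all genes of the table these medians were 17 in the 9896 at 1 TPM or more and 5 in the 3346 others. These are descriptions of letters, not of sites in use.

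A few receptors held most of the family's RNA, and most members of both classes were below the median of all genes. Of the 39 members, 16 (41.0%) had a mean of 1 TPM or more, against 71.4% of all 17525 genes, and 4 (10.3%) had 100 TPM or more, against 10.7% of all genes. The median level was 0.717 TPM for the members and 10.1 TPM for all genes. By class, 12 of 24 receptors and 4 of 15 ligands reached 1 TPM, with medians of 1.26 TPM for receptors and 0.193 TPM for ligands. Together the members held 0.148% of all TPM in ATR 1, 0.153% in ATR 2 and 0.144% in ATR 3. The ligands made up 4.92% ± 0.117 of that family total (SD, n = 3), and the 4 most abundant genes, all receptors, made up 86.7% ± 0.318.

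**Figure D1:**
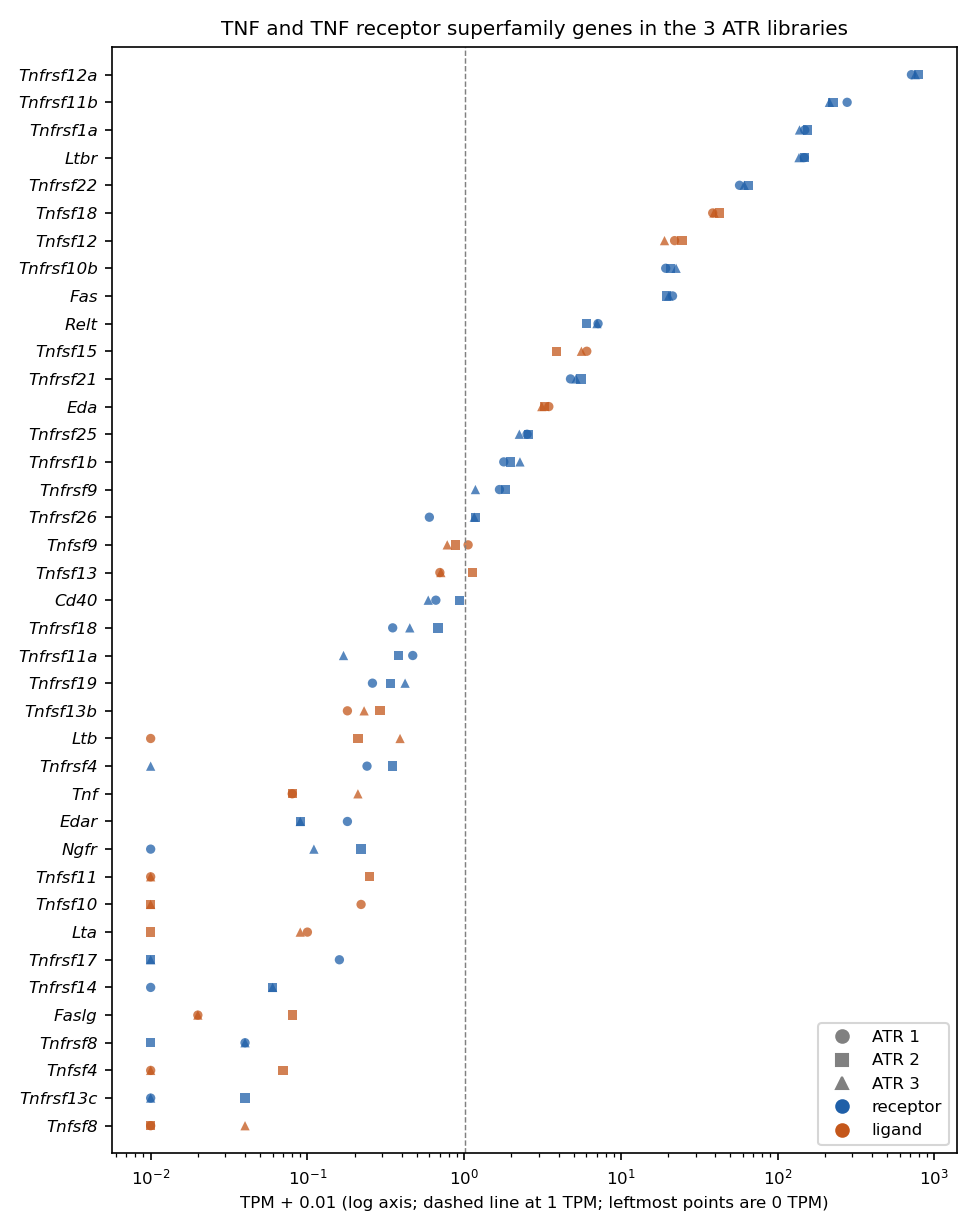
TPM + 0.01 on a log axis for the 39 members, ordered by mean level, with 1 point per ATR library (circle, square and triangle for ATR 1, ATR 2 and ATR 3). Receptors are blue and ligands orange, and the 4 genes above 100 TPM are all receptors, while 23 genes have a mean left of the dashed line at 1 TPM.

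The most abundant member was Tnfrsf12a, which encodes Fn14, the receptor of the ligand TWEAK, known for its induction by growth factors and in injured tissue. Its level was 714 TPM in ATR 1, 793 TPM in ATR 2 and 755 TPM in ATR 3 (below, sets of 3 values keep this order of libraries), with a mean of 754 ± 39.6 TPM (SD, n = 3), and ranked 205 among all genes. This transcript alone made up 50.9% ± 2.30 of the family's TPM. Its level was above that of each other member in every library.

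Tnfrsf11b, which encodes osteoprotegerin, the secreted decoy that binds RANKL and TRAIL, followed at 278, 226 and 214 TPM and a mean of 239 ± 33.9 TPM (SD, n = 3). ATR 1 was the high library. Tnfrsf12a exceeded it by 2.57, 3.52 and 3.53 times. Its counts are not whole numbers, at 6898.15, 5635.38 and 5461.11 estimated reads, and the reason for this was not tested, so its level is given as uncertain. It was the only member above 1 TPM with such counts.

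Receptors of TNF and of lymphotoxin came next. Tnfrsf1a, the death domain receptor through which soluble TNF mainly acts, stood at 149, 154 and 138 TPM, with a mean of 147 ± 8.39 TPM (SD, n = 3). Ltbr, the lymphotoxin beta receptor that drives the alternative NF-kB pathway, stood at 148, 149 and 137 TPM, with a mean of 145 ± 6.72 TPM. The Tnfrsf1a to Ltbr ratio was 1.01, 1.04 and 1.01 in the libraries, and the ranges of both overlap. The other TNF receptor, Tnfrsf1b, which lacks a death domain and is known from leukocytes and endothelium, stood at 1.78, 1.96 and 2.26 TPM, and overlaps another protein-coding gene of RefSeq that has no row here. Tnfrsf1a exceeded it by 83.6, 78.8 and 61.0 times.

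Death receptors of the Fas and TRAIL branches were expressed at middle levels. Tnfrsf10b, the TRAIL death receptor, stood at 19.3, 20.7 and 22.5 TPM, with a mean of 20.82 ± 1.596 TPM (SD, n = 3). In RefSeq it overlaps Rhobtb2, and because the labels' protocols describe no strand-marking step, reads of the 2 genes may be mixed there. Fas stood at 21.3, 19.5 and 20.2 TPM, with a mean of 20.3 ± 0.944 TPM, and its range overlaps that of Tnfrsf10b. Tnfrsf22, known from mouse as a TRAIL decoy without a death domain, was higher than both, at 57.1, 65.1 and 61.2 TPM and a mean of 61.1 ± 4.01 TPM. Tnfrsf21, a death domain receptor known from neurons, stood at 4.76, 5.55 and 5.16 TPM. Tnfrsf25, the death domain receptor of TL1A, stood at 2.51, 2.57 and 2.24 TPM from 36 to 40 reads a library. Edar, the ectodysplasin receptor, had 4, 2 and 1 reads and Ngfr, the low-affinity neurotrophin receptor, had 0, 6 and 3. Of the 7 death domain receptors, 5 (71.4%) thus reached 1 TPM, the same share as the 71.4% of all genes.

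Among the remaining receptors, Relt stood at 7.14, 6 and 7.03 TPM and Tnfrsf9, the T cell costimulator 4-1BB, at 1.67, 1.83 and 1.17 TPM from 15 to 23 reads a library. The other 6 receptors known from lymphocytes or antigen-presenting cells were below 1 TPM. Cd40 was the highest of them, at 0.65, 0.92 and 0.58 TPM, and Tnfrsf18 (GITR) had 4, 6 and 4 reads. Tnfrsf4, Tnfrsf8, Tnfrsf13c and Tnfrsf17 had at most 3 reads in a library. Tnfrsf11a, the RANK receptor, had 11, 9 and 4.01 estimated reads, Tnfrsf14 (HVEM) 0, 1 and 1, Tnfrsf19 (TROY) 3, 4 and 5, and Tnfrsf26 12, 27 and 25.

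The most abundant ligand was Tnfsf18, which encodes GITR ligand, a costimulator of T cells known from antigen-presenting cells and endothelium. It stood at 38.5, 42.5 and 39.3 TPM, with a mean of 40.1 ± 2.14 TPM (SD, n = 3), from 889, 987 and 931 reads. In RefSeq a long non-coding RNA without a row here overlaps it. Of 6 endothelial markers 5 had a row and 1 of these (20%) reached 1 TPM, against 71.4% of all genes. This was Kdr, at 3.55, 3.12 and 3.17 TPM. The endothelial sum was 4.53, 3.90 and 4.16 TPM, with 0, 3 and 1 reads of Pecam1 and 0, 1 and 1 of Cdh5. The pan-leukocyte gene Ptprc had 37, 29 and 42 reads. Other leukocyte markers were higher: Lyz2 stood at 60.2 to 83.2 TPM, Cd14 at 18.05 to 21.9 TPM and Cd68 at 11 to 14.75 TPM. Counts of Lyz2 and Cd14 are not whole, and Csf1r, Cd74 and Itgam were below these 3. The part of such cells in the level of Tnfsf18 was not tested.

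Tnfsf12, the gene of TWEAK, stood at 22, 24.56 and 18.97 TPM, with a mean of 21.8 ± 2.80 TPM (SD, n = 3). In RefSeq it overlaps the protein-coding Eif4a1l, which has no row here and also overlaps Tnfsf13, so reads of these genes may be mixed in its level and in ratios to it. Tnfsf18 exceeded it by 1.75, 1.73 and 2.07 times. Tnfsf15, the gene of TL1A, stood at 6.05, 3.86 and 5.59 TPM from 39, 25 and 37 reads. Eda, the gene of ectodysplasin, stood at 3.46, 3.24 and 3.12 TPM, and no other ligand reached a mean of 1 TPM.

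The ligands that give the family its name were close to the counting limit. Tnf had 1, 1 and 3 reads, Lta 1, 0 and 1, and Ltb 0, 2 and 4. The death ligands were as scarce, with 1, 2 and 1 reads for Faslg and 3, 0 and 0 for Tnfsf10, the gene of TRAIL. Tnfsf11, the gene of RANKL, had 0, 2 and 0 reads. In all, 7 of the 15 ligands and 5 of the 24 receptors had at most 3 reads in every library, and at these depths their levels cannot be ranked. Tnfsf9 (4-1BB ligand) stood at 1.05, 0.87 and 0.77 TPM, Tnfsf13 (APRIL) at 0.69, 1.12 and 0.70 TPM, and Tnfsf13b (BAFF) had 3, 5 and 4 reads. The read count per TPM of Tnfsf13 differed between libraries, with a coefficient of variation of 22.03%, from 13, 15 and 9 reads.

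Receptors were then set beside their ligands within each library. Of 28 pairs listed from textbook knowledge, 22 had a row for both genes. The receptor alone reached 1 TPM in 11 of them, the ligand alone in 2, both in 3 and neither in 6. Pairs share genes, so these counts are not independent.

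Both partners were expressed in the TWEAK pair, where Tnfrsf12a exceeded Tnfsf12 by 32.5, 32.3 and 39.8 times. The pair of ectodysplasin with Eda2r, a receptor of the family that the naming rule leaves out and a known p53 target, had Eda2r at 38.1, 36.2 and 33.5 TPM, above Eda by 11.0, 11.2 and 10.8 times. In the TL1A pair the ligand was the higher partner, with a Tnfrsf25 to Tnfsf15 ratio of 0.415, 0.666 and 0.401. The ligand was higher by far in the GITR pair, where the Tnfrsf18 to Tnfsf18 ratio was 0.00883, 0.0157 and 0.0112, with 4 to 6 receptor reads behind each value. Osteoprotegerin RNA was present with few reads for either signalling partner: Tnfrsf11b had at least 5461.11 estimated reads in each library, while Tnfrsf11a had at most 11 and Tnfsf11 at most 2. For Tnfrsf1a, Ltbr, Fas and Tnfrsf10b no ratio is given, since their listed ligands with a row had at most 4 reads in a library. Tnfsf14, also listed as a ligand of Ltbr, has no row, so its level is not known here.

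**Figure D2:**
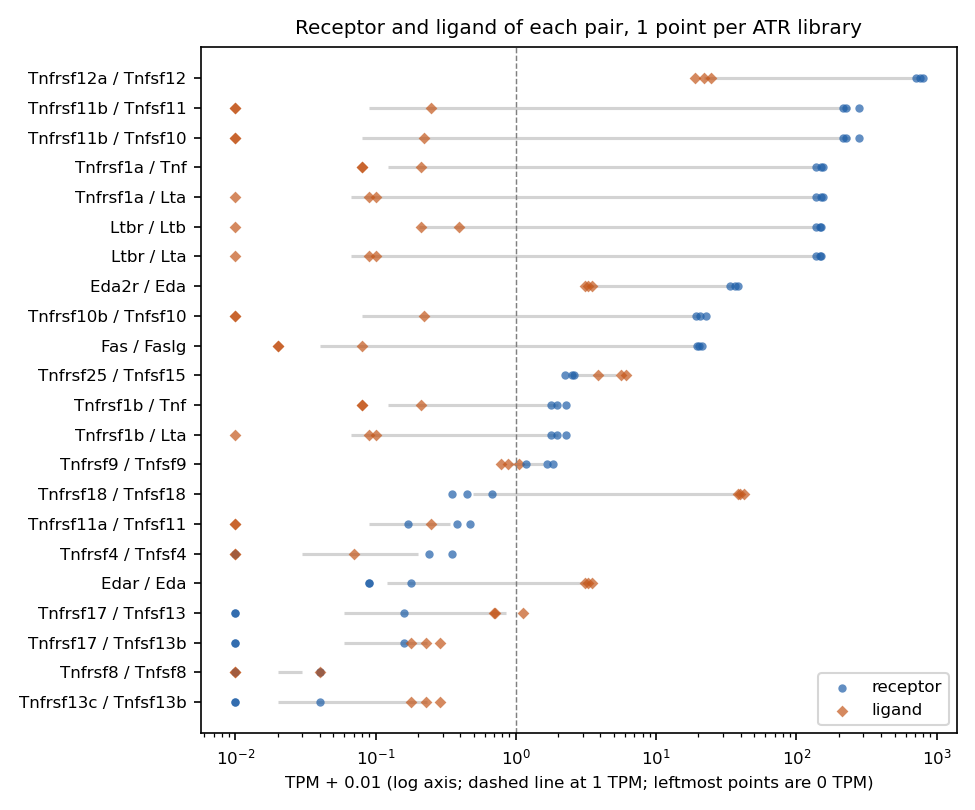
TPM + 0.01 on a log axis of the receptor (blue circles) and the ligand (orange diamonds) of 22 pairs, with 1 point per ATR library and a grey line between the means. Blue lies far right of orange in the upper rows, with 32.3 to 39.8 times more Tnfrsf12a than Tnfsf12, and orange lies right of blue for the GITR pair (Tnfrsf18 and Tnfsf18).

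The spread between the libraries was tested with a chi-square test of the rounded read counts against the scaled library sizes, over all genes with at least 30 reads in all. This compares libraries and not conditions. Of 13309 genes tested, 3087 (23.2%) passed an adjusted p of 0.05. Among the members 19 had enough reads and 4 of them passed (21.1%), a share near that of all genes. The passing members were Tnfrsf11b, Tnfrsf12a, Tnfrsf1a and Tnfsf12, which include the 3 with the most reads, and more reads make a small spread detectable.

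Tnfrsf11b was highest in ATR 1 and lowest in ATR 3, with a ratio of 1.26 (exact 95% interval 1.22 to 1.31, counting error only, adjusted chi-square p = 1.26e-40). Without ATR 1 it no longer passed (adjusted chi-square p = 0.0927). Summed TPM of the 8 granulosa markers was also highest in ATR 1, at 2639, 2361 and 2263. Gja1 (2036, 1863 and 1821 TPM) made up most of it. Inha, Foxl2 and Fshr were highest in ATR 1 too, while Nr5a2 and Hsd17b1 were highest in ATR 2, and Amh and Cyp19a1 were near 0. Summed TPM of the 6 stromal fibroblast markers was lowest in ATR 1, at 409, 463 and 464, but these markers were split. Col14a1 (333, 267 and 305 TPM), the largest of them, and Dcn were highest in ATR 1, while Thy1, Prrx1, Pdgfra and Lum were lowest there. The smooth muscle and pericyte sum was highest in ATR 1 as well, at 17454, 16287 and 16144. Tagln, Acta2 and Myh11 were highest in ATR 1, while Cnn1 and Notch3 were highest in ATR 2. The part of these in the values of Tnfrsf11b was not tested.

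Tnfrsf12a was highest in ATR 2 and lowest in ATR 1, with a ratio of 1.14 (1.10 to 1.18, adjusted chi-square p = 1.56e-10), and it too no longer passed without ATR 1 (adjusted chi-square p = 0.0873). The order of the libraries is thus not that of Tnfrsf11b. The summed TPM of the stromal markers and of the leukocyte markers (98.6, 123 and 121) was also lowest in ATR 1. Neither list was uniform, since Col14a1 and Dcn were highest in ATR 1, Ptprc and Cd74 lowest in ATR 2 and Cd68 lowest in ATR 3. Lyz2 (60.2, 78.6 and 83.2 TPM), whose counts are not whole, made up most of the leukocyte sum. The part of such cells in the values of Tnfrsf12a was not tested. Tnfrsf1a differed by a ratio of 1.11 (1.06 to 1.17) between ATR 2 and ATR 3, with an adjusted chi-square p of 0.00268. Without ATR 2 that p was 0.225 and without ATR 3 it was 0.144. Tnfsf12 differed between the same libraries by a ratio of 1.29 (1.09 to 1.52), with an adjusted chi-square p of 0.0378, which was 0.395 without ATR 2 and 0.278 without ATR 3.

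The widest spread in size among the tested members was that of Tnfrsf26, at 0.59, 1.17 and 1.15 TPM from 12, 27 and 25 reads, which did not pass (adjusted chi-square p = 0.130). It was the single one whose highest and lowest libraries differed by 1.5 times or more on the log2(CPM + 0.5) scale. The added 0.5 shrinks ratios at few reads, as for Tnfsf15 (39, 25 and 37 reads), Tnfsf13 (13, 15 and 9) and Tnfrsf9 (21, 23 and 15), so this count depends on it. Ltbr did not pass either (adjusted chi-square p = 0.0568), but did so with library totals as the scale (0.0208) and without ATR 1 (0.0355). Of the 19 tested members, 10 were highest in ATR 2 and 9 lowest in ATR 3. No such count over all genes is given here. Most of the 19 did not pass the test, so their order of libraries may be counting noise. The members' median deviation on the log2 scale was 0.01, 0.05 and -0.01, against -0.00051, 0.0011 and 0.0010 over all genes tested. Over the 16 members at 1 TPM or more the median coefficient of variation of TPM was 7.43%, against 6.16% over all genes at that level.

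**Figure D3:**
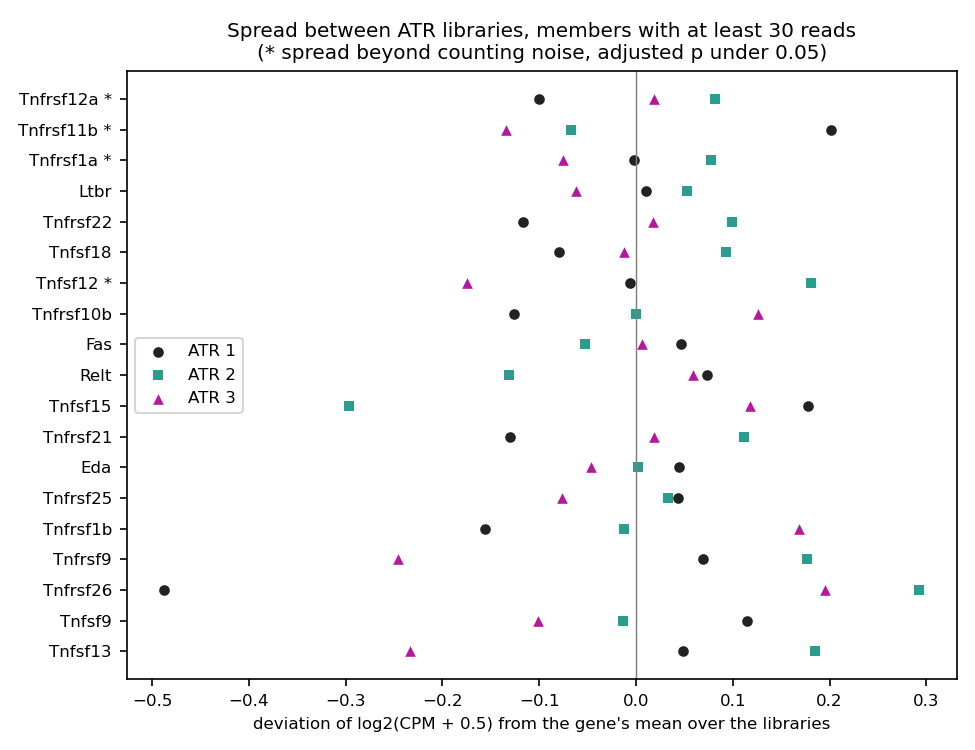
Distance of each library's log2(CPM + 0.5), with CPM on TMM-scaled libraries, from the gene's mean over the 3 ATR libraries, for the 19 members with at least 30 reads. The 4 starred members passed the chi-square test, with ATR 1 (black circles) at the high end for Tnfrsf11b and at the low end for Tnfrsf12a.

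Most listed genes that relay signals from these receptors were present, as were most genes of the table. Of 12 adaptors and TRAFs, 10 (83.3%) were at 1 TPM or more, against 71.4% of all genes, and the median of the list was 13.2 TPM. The highest were the TRAF-binding protein Tank at 79.2, 74.3 and 79.1 TPM, Traf4 at 58.4, 59.2 and 53.0 TPM and Tradd at 39.0, 38.1 and 39.7 TPM. Fadd, which links death receptors to caspase 8, stood at 13.4, 11.7 and 13.7 TPM. Traf1, a TRAF known to be induced by NF-kB, had 8, 12 and 10 reads, and Edaradd, the adaptor of Edar, 6.86, 9.8 and 8.03 estimated reads. None of the 11 adaptors tested passed the chi-square test of spread, against 23.2% of all genes.

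All 12 of the 12 death and survival effectors were above 1 TPM, against 71.4% of all genes, and their median level was 20.03 TPM. Diablo, an antagonist of the inhibitors of apoptosis, stood at 68.2, 72.9 and 73.4 TPM, and the ubiquitin ligase Birc2 at 37.8, 34.0 and 30.9 TPM. Of the 12, 4 passed the test of spread, against 23.2% of all genes. One of these was Ripk3, the kinase of necroptosis, at 15.7, 20.4 and 23.1 TPM, with a ratio of ATR 3 to ATR 1 of 1.52 (1.30 to 1.77, adjusted chi-square p = 5.12e-06). ATR 1 was the low library, as for the leukocyte and stromal sums, the theca marker Star (77.1, 105 and 110 TPM) and the surface epithelium markers Krt8 and Krt18. Not all markers went this way. The theca markers Cyp17a1, Lhcgr and Insl3 had at most 5 reads in a library, so Star alone does not stand for that list. Ptprc and Cd74 were lowest in ATR 2, Cd68 and Msln were lowest in ATR 3, and Col14a1, Dcn, Upk3b and Lrrn4 were highest in ATR 1. The part of these cell types in the values of Ripk3 was not tested. The Ripk3 substrate Mlkl stood at 7.64, 7.95 and 7.54 TPM.

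All 14 genes of the ubiquitin and kinase relay reached 1 TPM, against 71.4% of all genes, with a median of 17.5 TPM. Of the 14, 2 (14.3%) passed the test of spread, against 23.2% of all genes. Cyld, a deubiquitinase that restrains the pathway, led at 122, 104 and 100.2 TPM, followed by Tnip1 at 66.4, 65.1 and 64.0 TPM and by the kinase Map3k7 at 69.8, 61.7 and 58.9 TPM. Map3k14, the kinase of the alternative NF-kB pathway downstream of Ltbr, stood at 2.44, 2.27 and 2.48 TPM. The 6 genes of ligand shedding and its control had a median of 70.8 TPM, and 1 of 6 (16.7%) passed the test of spread, against the same 23.2%. Furin stood at 199.7, 209 and 192 TPM and the metalloproteinase inhibitor Timp3 at 101, 101 and 105 TPM. Adam10 stood at 91.1, 90.1 and 88.2 TPM, and Adam17, the protease that releases TNF, at 52.9, 51.7 and 50.6 TPM.

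Genes named for their induction by TNF, listed together with the Tnfaip8-like genes Tnfaip8l1, Tnfaip8l2 and Tnfaip8l3, differed widely in level. Of 8, 6 (75%) reached 1 TPM, against 71.4% of all genes, with a median of 25.8 TPM. Of 7 tested, 2 (28.6%) passed the test of spread, a share near the 23.2% of all genes. The Tnfaip8-like genes were the lowest, with means of 1.45, 0.74 and 0.517 TPM, and the genes below 1 TPM were among them. Tnfaip6 led at 118, 115 and 117 TPM, followed by Tnfaip1 at 117, 116 and 116 TPM and Tnfaip2 at 90.9, 93.8 and 98.9 TPM. Tnfaip3, the NF-kB feedback inhibitor A20, stood at 5.48, 7.55 and 6.56 TPM. These genes have other inducers, so their levels do not report on TNF.

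**Figure D4:**
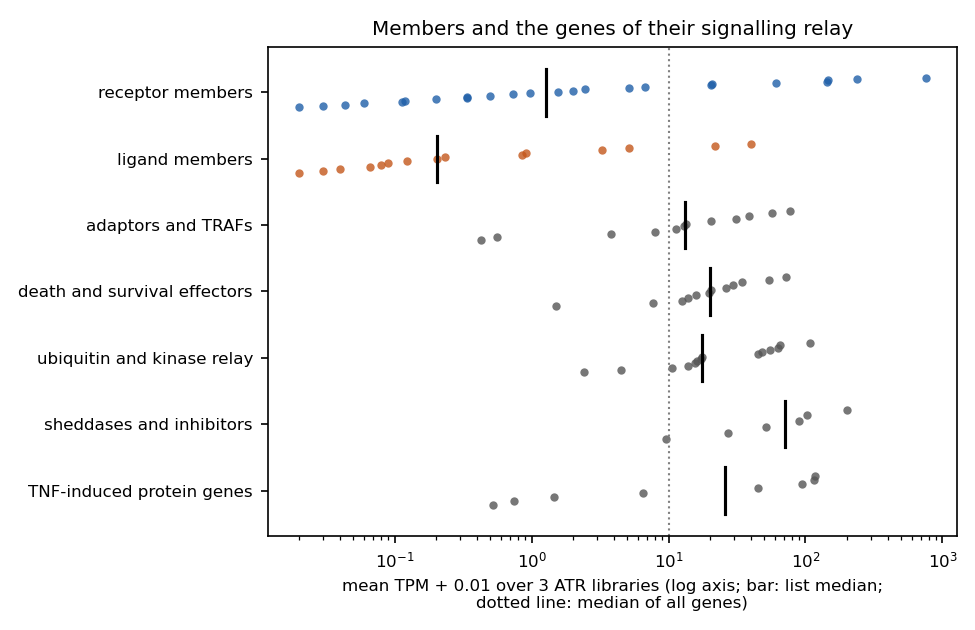
Mean TPM + 0.01 over the 3 ATR libraries on a log axis for the 24 receptors, the 15 ligands and the genes of 5 lists of the pathway, with 1 point per gene, a black bar at each list's median and a dotted line at the median of all genes (10.1 TPM). The medians of the 5 pathway lists, 13.2 to 70.8 TPM, lie right of the dotted line, and those of the receptors (1.26 TPM) and ligands (0.193 TPM) lie left of it.

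Markers of the immune cells in which many members are known were also measured. Of 9 leukocyte markers 8 had a row and 6 of these (75%) reached 1 TPM, a share near the 71.4% of all genes. Their sum was 98.6 to 123 TPM, led by Lyz2 (60.2 to 83.2 TPM). Of 5 T cell markers Cd4 and Cd8a had a row, with 39 to 49 and 0 to 3 reads. Of 4 B cell markers, 3 had a row, with a sum of 2.01 to 2.42 TPM that was nearly all Cd79a, whose counts are not whole. The part of such cells in the levels of Tnfrsf1b, Tnfrsf9, Cd40 and the ligands of T cell costimulation was not tested.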

How the data were processed

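Messenger RNA of primary rat ovarian cells was selected with oligo(dT) beads and read as pairs of 150 bases, per the labels' protocols. Per the file headers, the authors deposited a TPM value and an estimated count of reads for each gene and library. Tools named without a role are StringTie 2.1.5, HISAT2 2.2.1 and fastp 0.20.1, and builds likewise Rnor_6.0 and GRCm38, per the submitters' processing notes. Between 19.05% and 19.19% of a library's deposited estimated counts were not whole (tolerance 0.001), and all were rounded before any test.

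Columns of the ATR group alone were used, so the planned contrast with Control (edgeR's quasi-likelihood test) was not run. Libraries were scaled by TMM (edgeR 4.0.16, R 4.3.3). A chi-square test of each gene's counts across the libraries was run genome-wide on genes whose reads over the libraries came to 30 or more, at a threshold of 0.05 after Benjamini-Hochberg adjustment over every gene tested. It had first been checked on simulated counts that held counting noise and changes set in 1 library. Spread beyond counting noise (edgeR's common biological coefficient of variation) was 8.23% in these libraries, and that check did not include it. The protocols describe no molecular identifiers, so duplicated reads count as independent, and the test and the exact Clopper-Pearson 95% intervals cover counting error only. Each ratio sets the highest against the lowest library of a gene that had passed. The intervals do not allow for that choice, so an interval that leaves out 1 adds nothing to the test. Alternatives were library totals, size factors of DESeq2 1.42.0, other read minimums, whole counts alone and leaving out a library. Members at 1 TPM or more were named one by one, and pathway genes when among the 3 highest of their list or when they passed the test with a library ratio of 1.5 or more; Fadd, Traf1, Edaradd, Mlkl, Map3k14, Adam17 and Tnfaip3 were added after their values had been seen. Values of 1 gene that this rule names are not reported here. The members and lists were chosen with earlier results of these data known. Promoter sequences are from RefSeq, build GRCr8, matched by gene ID; the builds named for the counts differ from it, so coordinates were not joined. Other software was scipy 1.17.1, pandas 2.3.3 and numpy 2.4.6 under Python 3.11.15, with matplotlib 3.10.9 for plots.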

Additional observations from a re-analysis of the deposited data

How the results depend on the processing

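No paired analysis was possible because ATR is the single group with columns here, and the planned replicate block, DESeq2 contrast and other alternatives against Control were not run. The 16 members at 1 TPM or more were 12 at a mean of 5 TPM, 20 at 0.5 TPM, 17 at a mean CPM of 1, and 16 to 17 with a library left out. Members past the chi-square test of spread numbered 4, also 4 under DESeq2 size factors and other read minimums, 5 with library totals, and 3 with whole counts alone, which drop Tnfrsf11b. With a library left out they numbered 2 to 3, and the count over all genes was between 1528 (without ATR 1) and 2230 (without ATR 3), against 3087, with fewer libraries in each test. The ratios between named libraries kept their direction under library totals and DESeq2 size factors, and the other settings leave a ratio of fixed libraries nearly as it is by construction. At these depths, members with a few reads a library cannot be ranked, and 20 of 39 had too few reads for the test.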

Other observations

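The C1q/TNF-related genes encode secreted proteins whose globular domain resembles that of TNF, although they are not ligands of TNF receptors. They were looked at after the values of the members had been seen. Of 7 with a row, 5 (71.4%) reached 1 TPM, against 71.4% of all genes. They were led by C1qtnf1 at 60.6, 57.2 and 51.9 TPM (values are in the order of libraries 1 to 3), C1qtnf6 at 22.6, 28.9 and 25.6 TPM and C1qtnf2 at 21.6, 17.1 and 18.7 TPM. Of 5 tested, 3 (60%) passed the chi-square test of spread, against 23.2% of all genes: C1qtnf5, C1qtnf6 (adjusted chi-square p = 0.00303) and C1qtnf7 (0.00495). C1qtnf5 stood at 4.04, 15.8 and 10.3 TPM from 48, 185 and 124 reads (adjusted chi-square p = 6.94e-17). Of the 6 stromal fibroblast markers Thy1, Prrx1 and Pdgfra had the same order of libraries, for example 12.0, 47.0 and 29.2 TPM for Prrx1, whereas Col14a1 (333, 267 and 305 TPM) and Dcn (25.3, 22.8 and 21.2 TPM) were highest in ATR 1 and Lum (14.8, 17.7 and 22.04 TPM) in ATR 3. The part of stromal cells in the values of C1qtnf5 was not tested.

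Of the family's genes outside the naming rule, Rell1, a relative of Relt, stood at 42.3, 34.8 and 34.8 TPM, Rell2 at 18.7, 17.7 and 15.5 TPM, and Cd70, the ligand of CD27, had 1, 0 and 0 reads. Rell1 passed the test of spread (adjusted chi-square p = 0.000108), with ATR 1 the high library as for Tnfrsf11b.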
